A study of Mus musculus with 4 samples.

Results

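Notch ligands, receptors and target genes were examined in brain endothelial cells of Pd1fl/fl and Pd1cKO-Tie2 mice. The 10 members were taken by gene symbol from the deposited count tables: the ligands Dll4, Jag1 and Jag2, the receptors Notch1 and Notch4, and the targets Hey1, Hey2, Heyl, Hes1 and Nrarp. All 10 were found among 21578 genes, and all 10 passed the filter on low counts that left 15909 genes for testing. Both genotypes were on the C57BL/6 strain and were taken at postnatal day 0, with 2 libraries each. Pd1fl/fl mice carry a floxed Pd1 gene, and Pd1cKO-Tie2 mice carry the same floxed gene with a Cre recombinase driven by Tie2. This driver is not exclusive to vessels, since blood cells and macrophages can recombine with it too. The cells were purified by flow cytometry. For cultured brain endothelial cells, the study describes a sort of cortical cells stained for CD31, an endothelial marker, and CD45, a leukocyte marker, whereas the gate used for the sequenced cells and the number of animals behind a library are not given in the sources used here. Nothing says that libraries came from separate animals, so p-values measure only the spread between libraries, which may be technical.

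Notch signaling passes between cells in contact. A ligand of the Delta-like or Jagged family on 1 cell binds a Notch receptor on its neighbor, the receptor is cleaved, and its intracellular part enters the nucleus, joins the DNA-binding protein RBPJ and switches on genes such as the Hes and Hey repressors. In growing vessels, Dll4 on the leading tip cell acts on Notch1 in the cells behind it and restrains their sprouting, whereas Jag1 opposes this effect, and Notch4 is a receptor found mainly on endothelium. The pathway also sets arterial identity and the attachment of mural cells, and outside vessels it keeps neural progenitors undifferentiated.

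For Pdcd1, the deleted gene, 32 reads were counted in replicate 1 of Pd1fl/fl and 0 in both Pd1cKO-Tie2 libraries. For Pd1fl/fl replicate 2 the gene was not listed and was given 0, so a few reads may be hidden there. Its loss could not be judged, since Pd1fl/fl replicate 2 held few reads of it or none. Pd1fl/fl replicate 1 also had the highest level of neutrophil markers, given below, and the cells that gave the 32 reads are not known. Replicates are numbered as in the deposited columns, and the 2 of Pd1cKO-Tie2 replicate 2 matches no sample label. Library totals were 14358748 and 13714374 counts for the Pd1fl/fl genotype, against 24146115 and 14155871 for Pd1cKO-Tie2. The labelled cell type was checked with 14 endothelial markers such as Pecam1, Cdh5 and Cldn5, none of which was at 0 in any library. Their summed level was 12248 and 11252 CPM in the Pd1fl/fl libraries, against 14557 and 15520 CPM in the Pd1cKO-Tie2 libraries, where CPM is counts per 1000000 after TMM scaling, and both Pd1cKO-Tie2 libraries were above both Pd1fl/fl libraries for 13 of the 14. Of all 15909 tested genes, 2818 were above in this way. Markers of other cells were present too, and neutrophil markers stood apart at 908 CPM in Pd1fl/fl replicate 1, against 1.17 to 55.4 CPM elsewhere. In a bulk sample, fewer cells of a type and less RNA per cell cannot be told apart.

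No Notch member passed the test between the genotypes. A gene was called changed at a fold of at least 2 with a p of 0.05 or less in edgeR's quasi-likelihood test, the criterion in the study's methods. By this rule 4.02% of all tested genes were called, and 0 of the 10 members were. With TMM scaling in edgeR, and in DESeq2 and limma-voom, none of the members had an unadjusted p under 0.05, and the smallest in edgeR was 0.188 for Hes1. Adjusted over all tested genes, p was 0.953 for Hes1 and 0.9998 for each of the 9 others (edgeR, Benjamini-Hochberg). Of all tested genes, 0 had an adjusted p under 0.05 in edgeR and in limma-voom, while 1016 had an unadjusted p under 0.05 in edgeR. DESeq2, run on all 21578 genes with a count, gave 117 genes with an adjusted p under 0.05. The median log2 fold change of Pd1cKO-Tie2 over Pd1fl/fl was 0.056 over the members and -0.0038 over all tested genes. The median size of the change, without its sign, was 0.12 against 0.35, with genes not matched for level.

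The libraries of the genotypes overlapped for every member. Both Pd1cKO-Tie2 libraries lay on 1 side of both Pd1fl/fl libraries for 35.8% of all tested genes, and for 0 of the 10 members. In 6 members (Jag2, Notch4, Hey1, Hey2, Heyl and Nrarp) both Pd1cKO-Tie2 libraries fell between the 2 Pd1fl/fl libraries, which was so for 15.5% of all tested genes. With 2 libraries against 2, an exact two-sided permutation test of a single gene cannot give a p below 0.333.

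**Figure D1:**
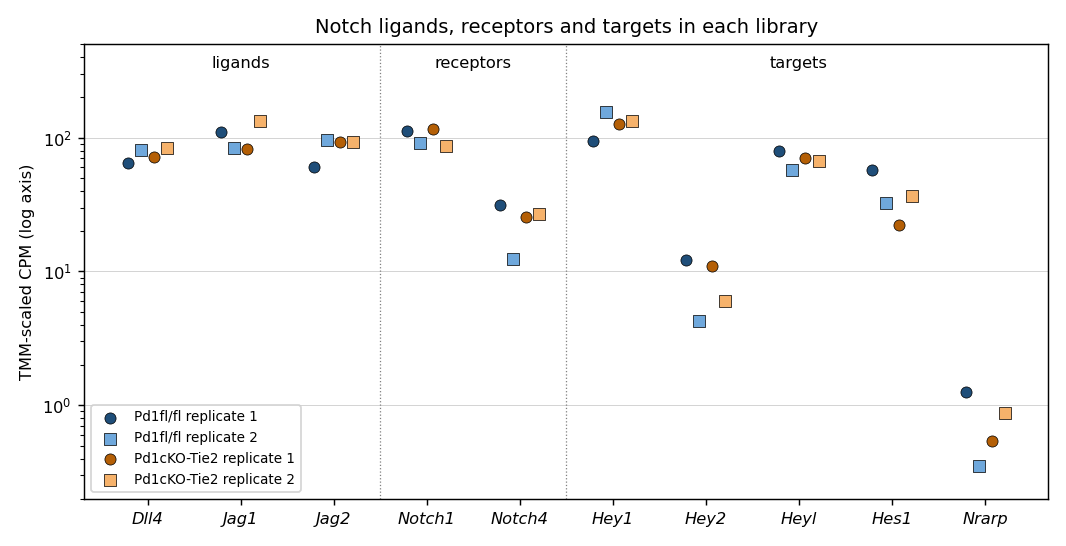
TMM-scaled CPM (log axis) of the 10 members; each point is 1 library, blue for Pd1fl/fl and orange for Pd1cKO-Tie2, with circles for replicate 1 and squares for replicate 2. The colors are interleaved in every column, and 0 of the 10 members has both orange points on 1 side of both blue points.

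The ligand levels overlapped between the genotypes. Dll4 (ENSMUSG00000027314, chromosome 2 of GRCm38, 119325784 to 119335962, forward strand), the Delta-like ligand of tip and arterial endothelium, was at 64.2 and 81.2 CPM in the Pd1fl/fl libraries, against 71.2 and 83.1 CPM in the Pd1cKO-Tie2 libraries. The genotypes overlapped, and the fold was 1.06 with a 95% interval from 0.711 to 1.58 (adjusted p = 0.9998, edgeR). Its exons share 214 bases with Gm14207 on the other strand, which itself had 115 to 203 counts, so part of its reads is uncertain where strand was not used in counting.

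Jag1 (ENSMUSG00000027276, chromosome 2, 137081456 to 137116644, reverse strand), the Jagged ligand that competes with Dll4 in sprouting vessels, was at 110.0 and 84.2 CPM in the Pd1fl/fl libraries, against 82.2 and 134 CPM in the Pd1cKO-Tie2 libraries. The highest and the lowest library were both Pd1cKO-Tie2, and these differed 1.63-fold from each other, against a fold of 1.11 between the genotypes (interval 0.667 to 1.85). Jag2 (ENSMUSG00000002799, chromosome 12, 112907819 to 112929776, reverse strand), its close relative, was at 60.7 and 95.5 CPM in the Pd1fl/fl libraries, against 92.5 and 92.4 CPM in the Pd1cKO-Tie2 libraries. Pd1fl/fl replicate 1 alone was low, and the fold of 1.18 had an interval from 0.744 to 1.89.

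Of the receptors, Notch1 (ENSMUSG00000026923, chromosome 2, 26457903 to 26516663, reverse strand), the main endothelial receptor for Dll4, was at 112 and 90.9 CPM in the Pd1fl/fl libraries, against 117 and 86.2 CPM in the Pd1cKO-Tie2 libraries. The Pd1cKO-Tie2 libraries enclosed the Pd1fl/fl libraries, and the fold was 1.00 with an interval from 0.664 to 1.51. Exons of 0610009E02Rik and Gm13568 overlap 1068 and 414 bases of Notch1 on the other strand, and 0610009E02Rik had at most 27 counts in a library. Notch4 (ENSMUSG00000015468, chromosome 17, 34564268 to 34588503, forward strand), the receptor restricted mainly to endothelium, was at 31.1 and 12.4 CPM in the Pd1fl/fl libraries, against 25.7 and 27.0 CPM in the Pd1cKO-Tie2 libraries. Pd1fl/fl replicate 2 was the low library, 2.51-fold under replicate 1 of the same genotype, and the fold between genotypes was 1.21 with an interval from 0.522 to 2.80.

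The Hey genes encode repressors of the basic helix-loop-helix type that Notch switches on directly and that take part in arterial fate. Hey1 (ENSMUSG00000040289, chromosome 3, 8663359 to 8667256, reverse strand) was at 94.5 and 155 CPM in the Pd1fl/fl libraries, against 127 and 133 CPM in the Pd1cKO-Tie2 libraries. The Pd1cKO-Tie2 libraries were close to each other and lay between the Pd1fl/fl libraries, with a fold of 1.04 (interval 0.658 to 1.66).

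Heyl (ENSMUSG00000032744, chromosome 4, 123233556 to 123249875, forward strand), which mural cells also express, was at 79.6 and 57.0 CPM in the Pd1fl/fl libraries, against 70.2 and 67.4 CPM in the Pd1cKO-Tie2 libraries. Its fold was 1.01 (interval 0.655 to 1.55). Hey2 (ENSMUSG00000019789, chromosome 10, 30832359 to 30842801, reverse strand) was the scarcest Hey gene, at 12.2 and 4.297 CPM in the Pd1fl/fl libraries, against 11.05 and 6.01 CPM in the Pd1cKO-Tie2 libraries. The libraries differed 2.84-fold from each other within Pd1fl/fl and 1.84-fold within Pd1cKO-Tie2. The fold between genotypes was 1.03, with an interval from 0.300 to 3.57.

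Hes1 (ENSMUSG00000022528, chromosome 16, 30064384 to 30067796, forward strand), a repressor that Notch induces in many cell types including neural progenitors, had the largest difference of the members. It was at 57.2 and 32.6 CPM in the Pd1fl/fl libraries, against 22.3 and 36.5 CPM in the Pd1cKO-Tie2 libraries. Pd1fl/fl replicate 1 was the highest and Pd1cKO-Tie2 replicate 1 the lowest, with the other libraries between them. The log2 fold change was -0.61 (standard error 0.41), which is a fold of 0.654 with an interval from 0.324 to 1.32. It kept its sign with each library left out, but its size depended on the library: -0.15 without Pd1fl/fl replicate 1, -0.96 without Pd1fl/fl replicate 2, -0.29 without Pd1cKO-Tie2 replicate 1 and -1.004 without Pd1cKO-Tie2 replicate 2.

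Nrarp (ENSMUSG00000078202, chromosome 2, 25180758 to 25183339, forward strand), a small ankyrin repeat protein that dampens Notch and is itself a Notch target, was nearly at the limit of detection. The Pd1fl/fl libraries held 18 and 5 of its counts, the Pd1cKO-Tie2 libraries 13 and 12, or 1.25, 0.352, 0.544 and 0.879 CPM. The exact 95% Poisson interval of the Pd1fl/fl counts was 10.7 to 28.4 and 1.62 to 11.7, and covers counting error only. The interval of its fold, 0.0609 to 12.9, was the widest of the 10 members. Exons of Gm38287 on the other strand cover 2051 of the 2582 exon bases of Nrarp. Unless strand entered the counting, the Nrarp counts may be wrong, in a direction that is not known here.

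**Figure D2:**
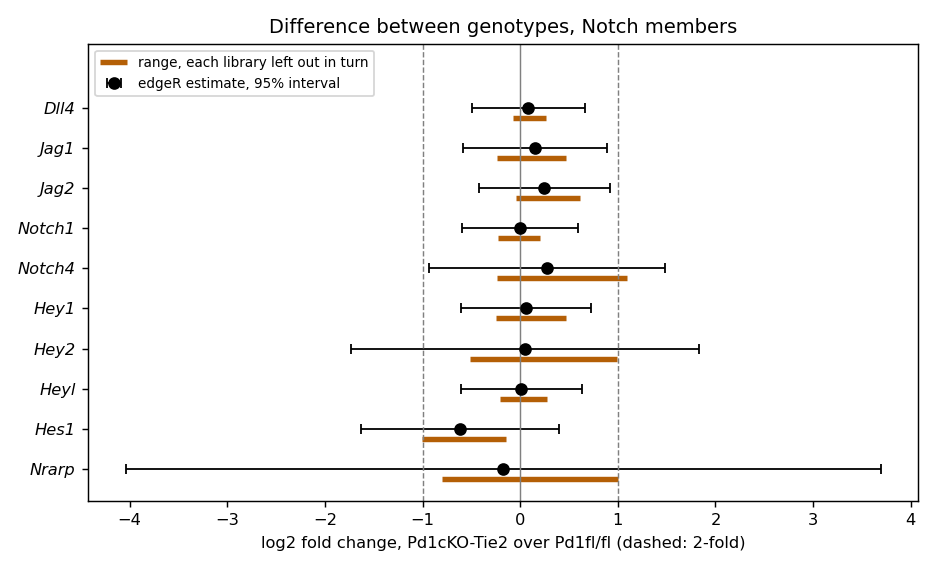
Log2 fold change of Pd1cKO-Tie2 over Pd1fl/fl for each member; points are edgeR estimates with 95% intervals, orange bars the range with each library left out, dashed lines a 2-fold change. The 10 intervals all span 0, from the narrow interval of Dll4 (-0.49 to 0.66) to that of Nrarp (-4.04 to 3.69).

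The observed fold needed to meet the p limit differed among the members. At the spread of these libraries, a fold (either way) of 1.49 for Dll4, 1.51 for Notch1, 1.54 for Heyl, 1.59 for Hey1 and Jag2 and 1.67 for Jag1 would have met the p limit in edgeR. For these 6 genes the interval of the difference lay within a 2-fold change in either direction. The fold needed was 2.02 for Hes1, 2.32 for Notch4, 3.45 for Hey2 and 14.6 for Nrarp. For these 4 genes an observed 2-fold change would not have met the p limit at this spread. How often a true change of a given size would be found was not computed.

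Levels were compared between genes as CPM per kilobase of exon, the mean ± SD over the 4 libraries. Hey1 was the most abundant member at 39.0 ± 7.63, above Dll4 at 19.4 ± 2.30 in 4 of 4 libraries with no overlap of their ranges. Dll4, Hes1 (18.2 ± 7.18) and Jag1 (17.6 ± 4.19) followed and overlapped with each other. Jag1 was above Heyl (13.4 ± 1.82) in each of the 4 libraries, although their ranges overlapped, and Heyl and Jag2 (12.2 ± 2.36) could not be ordered. Notch1 (7.13 ± 1.06) was below the 3 ligands, Notch4 (2.98 ± 1.01) was below Notch1, and Hey2 (1.83 ± 0.835) and Nrarp (0.293 ± 0.153) were the lowest. Notch1 and Notch4, and Hey2 and Nrarp, had ranges that did not overlap, whereas those of Notch4 and Hey2 did. Nrarp was divided by all 2582 of its exon bases, of which 2051 are shared with Gm38287. Its level and place are therefore uncertain unless strand entered the counting.

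The makeup of each class was compared within a library, where the scaling between libraries plays no part. Among the 5 ligand transcripts Dll4, Jag1, Jag2, Dll1 and Dll3, Dll4 took 31.3% and 37.5% of the summed CPM per kilobase with Pd1fl/fl, against 34.9% and 31.6% with Pd1cKO-Tie2. Jag1 took 30.6 ± 6.90% and 30.1 ± 4.93% (SD, n = 2) in the respective genotypes, a difference smaller than either SD. Among the 5 target members, Hey1 took 38.2% in Pd1fl/fl replicate 1 and between 55.4% and 62.7% in the 3 other libraries. Hes1 took 37.1% in Pd1fl/fl replicate 1 and between 16.5% and 24.4% in the others, so this library stood apart from its own replicate as well.

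The summed target level was 75.7 and 75.6 CPM per kilobase with Pd1fl/fl, against 66.2 and 73.5 with Pd1cKO-Tie2, and did not overlap. Taken singly, 35.8% of all tested genes did not overlap, and no such figure was computed for sums. Without Hes1 the other targets summed to 47.6 and 59.6, against 55.3 and 55.6, and overlapped, as did the ligand and receptor sums.

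Of the 4 receptor shares, 3 did not overlap between the genotypes. Notch1 made up 35.5% and 40.9% of the receptor sum with Pd1fl/fl, against 47.0% and 44.1% with Pd1cKO-Tie2, and Notch4 17.4% and 9.84% against 18.3% and 24.4%. Notch3, the receptor of pericytes and smooth muscle, made up 35.1% and 29.4% with Pd1fl/fl, against 24.6% and 16.7% with Pd1cKO-Tie2. Notch2, the remaining receptor, made up 12.004% and 19.9%, against 10.1% and 14.9%, and overlapped. The shares add up to a whole within each library and were not tested. Levels that do not overlap were found for 35.8% of all tested genes taken singly, and no such figure was computed for shares. The levels of Notch1 and Notch4 themselves overlapped, as given above, and the share that was lower belonged to Notch3.

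**Figure D3:**
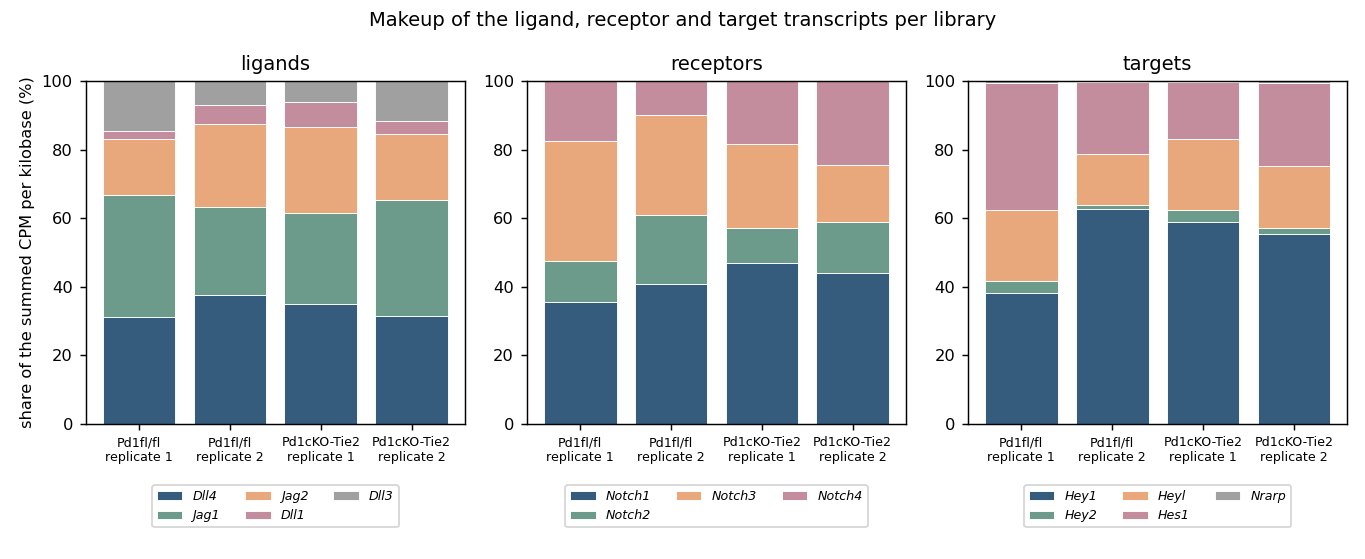
Share (%) of each gene in the summed CPM per kilobase of 5 ligands, 4 receptors and 5 targets; each bar is 1 library and adds up to all of its class. Notch3 takes 35.1% and 29.4% of the receptor bar with Pd1fl/fl, against 24.6% and 16.7% with Pd1cKO-Tie2, while the ligand bars show no such split.

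The rest of the pathway was followed in a list of 52 genes, of which 51 could be tested. At the same criterion 0 were called higher, against 1.41% of all tested genes, and 1 was called lower, against 2.61%. The gene called lower was Hes5, a Notch target typical of radial glia and other neural progenitors. It was at 34.4 ± 9.57 CPM (SD, n = 2) in the Pd1fl/fl group and at 16.1 ± 1.93 CPM in Pd1cKO-Tie2, so that the log2 fold change was -1.10 with a standard error of 0.35. In edgeR p was 0.0223, and 0.735 after Benjamini-Hochberg adjustment, with the levels not overlapping. The call was lost without Pd1fl/fl replicate 2, when the change was -0.78 (adjusted p = 0.883, edgeR), and without Pd1cKO-Tie2 replicate 2, when it was -0.98 (adjusted p = 0.928). The median log2 fold change of the 51 genes was 0.092, with 28 positive and 23 negative values.

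The summed level of radial glia and astrocyte markers was lower in the Pd1cKO-Tie2 libraries. The sum of these 7 markers, none of which was at 0, was 802 and 825 CPM in the Pd1fl/fl libraries, against 533 and 409 CPM in the Pd1cKO-Tie2 libraries, and 5 of the 7 had both Pd1cKO-Tie2 libraries below both Pd1fl/fl libraries. Of all 15909 tested genes, 2881 were below in this way. Sox2 and Aqp4 overlapped between the genotypes, with log2 fold changes of 0.22 and -0.22. The part of radial glia and astrocytes in the level of Hes5, and in that of Hes1, which the same cells express, was not tested. For microglia and macrophages, where Tie2-Cre can be active, the sum of 8 markers was 1901 and 2389 CPM against 737 and 1646 CPM, with 6 of the 8 lower in this way. The neuronal sum (7 markers) was 782 and 1180 against 962 and 883 CPM and overlapped.

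The other receptors, Notch2 and Notch3, were not called. Notch3 was at 50.1 ± 18.3 CPM (SD, n = 2) in the Pd1fl/fl group and at 26.6 ± 11.4 CPM in Pd1cKO-Tie2, with a log2 fold change of -0.91 (adjusted p = 0.859, edgeR) that ran from -1.42 to -0.47 with each library left out. It met the criterion without Pd1fl/fl replicate 2 (-1.24, adjusted p = 0.788, edgeR) and without Pd1cKO-Tie2 replicate 1 (-1.42, adjusted p = 0.909). Notch2 was at 31.1 ± 3.40 and 20.5 ± 2.15 CPM, a log2 fold change of -0.60 (adjusted p = 0.904, edgeR). For both, the Pd1cKO-Tie2 libraries lay below the Pd1fl/fl libraries. The 8 markers of pericytes and smooth muscle, the cells in which Notch3 is typical, summed to 5653 and 3700 CPM in the Pd1fl/fl libraries, against 3790 and 3796 CPM in the Pd1cKO-Tie2 libraries. Most of this sum was Rgs5. Of the 8 markers, 2 had both Pd1cKO-Tie2 libraries below both Pd1fl/fl libraries and 1 had them above. The same held for 2881 (below) and 2818 (above) of all 15909 tested genes. The median log2 fold change was -0.24 over the 6 markers that could be tested. Of these markers Acta2 and Myh11 were at 0 in at least 1 library, and the part of these cells in the level of Notch3 or Heyl was not tested.

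Genes that modify or cleave Notch included the most abundant of the pathway. Of the 5 genes for sugar modification of Notch, Mfng, the Manic Fringe enzyme, was the most abundant of all 52 at 136 ± 23.0 CPM per kilobase (n = 4). It was at 330 ± 0.171 CPM (SD, n = 2) in the Pd1fl/fl group and at 440 ± 24.4 CPM in Pd1cKO-Tie2, a log2 fold change of 0.42 (adjusted p = 0.735, edgeR) that falls short of 2-fold. Among the 10 genes for cleavage, Adam10, the protease that sheds the bound receptor, led at 116 ± 13.4 CPM per kilobase and had a log2 fold change of 0.10 (adjusted p = 0.9998, edgeR). The secreted endothelial protein Egfl7, which binds Notch, was at 115 ± 17.1 CPM per kilobase with a log2 fold change of 0.36 (adjusted p = 0.753, edgeR).

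In the remaining groups the most abundant genes were Numb (28.3 ± 3.24 CPM per kilobase), an inhibitor of Notch, Snw1 (26.003 ± 4.92) of the nuclear complex, Hdac1 (25.1 ± 6.54) of the corepressors, Gja4 (49.1 ± 3.22), an arterial connexin, and Dner (7.83 ± 0.491), an atypical ligand. Their log2 fold changes lay between -0.01 for Dner and 0.24 for Hdac1, and none was called. Both Pd1cKO-Tie2 libraries were on 1 side of the Pd1fl/fl libraries for 25 of the 51 pathway genes (49.0%), above in 14 and below in 11, beside 35.8% of all tested genes.

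**Figure D4:**
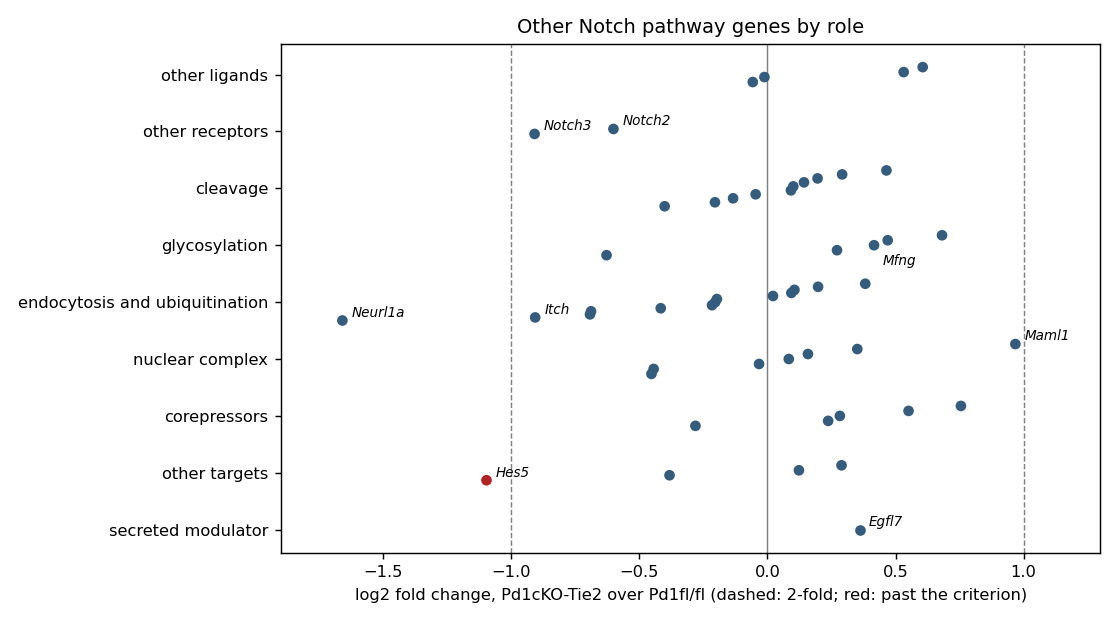
Log2 fold change of Pd1cKO-Tie2 over Pd1fl/fl for the 51 tested pathway genes outside the members, 1 point a gene, in rows by role; dashed lines mark a 2-fold change. Hes5, in red at -1.10, is the 1 gene past the criterion, and Notch2 (-0.60) and Notch3 (-0.91) are both on the negative side.

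Since the endothelial markers were higher in the Pd1cKO-Tie2 libraries (median log2 fold change 0.32 over 14 genes), the members were also scaled to the geometric mean of these markers. This moved the median of all tested genes to -0.36, and the log2 fold changes of the members are to be read against that shift. The members then ran from -0.13 for Jag2 to -0.34 for Notch1, apart from Notch4 at -0.05, Hes1 at -0.97 and Nrarp at -0.50. Heyl and Hes1 had both Pd1cKO-Tie2 libraries below both Pd1fl/fl libraries on this scale, 2 of the 10 members beside 40.1% of all tested genes. On a further scale, the summed counts of these markers, Notch1 was below as well, so that 3 of the 10 members were, beside 40.5% of all tested genes. The largest single part of this sum was Cldn5, at 5516 and 4774 CPM in the Pd1fl/fl libraries, against 6562 and 7008 CPM in the Pd1cKO-Tie2 libraries. On this summed scale Notch1 was at 9.14 and 8.08 counts per 1000 marker counts with Pd1fl/fl, against 8.01 and 5.55. Hes1 was at 4.67 and 2.90 counts per 1000 counts of the endothelial markers with Pd1fl/fl, against 1.53 and 2.35 with Pd1cKO-Tie2. With the geometric mean scaling, 0 of the members were called. Hes1 had an unadjusted p of 0.0467 there (adjusted p = 0.452, edgeR) at a change short of 2-fold.

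The genes most like a member in their profile over the 4 libraries were found by the Euclidean distance of mean-centered log2 CPM. For Dll4 these were Lysmd2, Nfe2l2 and Numb, at distances of 0.022 to 0.028, for Notch1 Ints5, Elp5 and Smc1a (0.031 to 0.048), and for Hey1 Sik2, Nckap5l and Nfatc1 (0.019 to 0.043). With only 4 libraries a close match is common: of 13167 protein-coding genes compared, 342 were within 0.2 of Dll4, 241 of Notch1 and 118 of Hey1.

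RBPJ, the DNA-binding partner of the cleaved receptor, recognizes the core letters TGGGAA. The set of RefSeq promoters of GRCm38.p6 used here covered 7 of the 10 members. It did not hold Hey1, Heyl and Hes1, which were therefore not searched. The 250 bases before the start held this core on either strand in 21.6% of 32851 promoters. Of the 7 members only Hey2 held it, 207 bases before its start on the other strand, and a second copy began 3 bases before the start. The stretch with the first copy, on chr10:30842944-30843023 of the reverse strand, is shown because it is the match of a member that is itself a Notch target, with the core in capitals as it reads on the strand of the gene.
Hey2: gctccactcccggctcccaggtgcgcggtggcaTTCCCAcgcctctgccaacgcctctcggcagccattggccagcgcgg
A match describes these letters and no more. Hey2 was at 12.2 and 4.297 CPM in the Pd1fl/fl libraries, against 11.05 and 6.01 CPM in the Pd1cKO-Tie2 libraries. Whether the match bears on these levels was not tested.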

How the data were processed

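RNA of purified brain endothelial cells was measured in 2 Pd1fl/fl and 2 Pd1cKO-Tie2 libraries. The authors deposited 4 tables, each setting 1 library of a genotype beside 1 of the other. The deposited count columns hold whole reads per gene, not normalized by the authors. The submitters' processing notes name Bowtie2 2.2.3, TopHat2 2.0.12, HTSeq 0.6.0 and mm9, without roles, whereas 90.0% of gene positions in the tables equal GENCODE M21 on GRCm38. Use of strand is not given in the sources used here. Columns of normalized values (8) and of the authors' fold changes and p-values were not used.

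The tables were joined by gene identifier after 5 broken lines in each of 2 tables were passed over, and 0 counts differed between tables. A gene is listed where both libraries hold a count or 1 holds at least 5, and genes not listed were given 0, although up to 4 reads may be hidden there. A 0 allows up to 3 counts, 0.124 to 0.219 CPM. The 10 members, the pathway list and the markers were chosen with earlier results of these data known.

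Counts were tested with edgeR 4.0.16 (R 4.3.3; quasi-likelihood F test, filterByExpr, TMM, no covariate; common biological coefficient of variation 0.610), with Benjamini-Hochberg adjustment over 15909 genes. Standard errors were obtained by dividing the log2 fold change by the root of F, and gave the 95% intervals. The script was tested on simulated counts. Alternatives were DESeq2 1.42.0, limma-voom (limma 3.58.1), other scalings and filters, and leaving out each library. Python 3.11.15 read exon lengths and overlaps of GENCODE M21. Named genes are the members, pathway genes past the criterion, the gene with the highest level per kilobase in each pathway group, and 3 nearest profiles each for Dll4, Notch1 and Hey1 (protein-coding, mean of at least 1 CPM). Notch2 lies outside this rule and was chosen after its values were seen. The p-values of single genes in the text are from edgeR unless another tool is named. Protein sequences were not used here.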

Additional observations from a re-analysis of the deposited data

How the results depend on the processing

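For the 10 members, 0 calls were made under each of the 12 alternatives. Of 119 log2 fold changes recomputed, 90 kept their direction and 29 changed sign, all of them uncalled. Scaling to the endothelial markers gave -0.28 for Dll4, -0.21 for Jag1, -0.13 for Jag2, -0.34 for Notch1, -0.0543 for Notch4, -0.31 for Hey1, -0.26 for Hey2 and -0.33 for Heyl. Notch1, at 0.0004 by TMM, was at -0.0017 with RLE, -0.0077 with upper quartile, -0.0571 with library size scaling and -0.0036 with at least 10 counts in every library, a filter that Nrarp did not pass. Library size scaling gave -0.0063 for Hey1 and -0.0477 for Heyl.

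With each library left out in turn, the log2 fold change ran from -0.072 to 0.27 for Dll4, -0.24 to 0.47 for Jag1, -0.0423 to 0.61 for Jag2, -0.23 to 0.21 for Notch1, -0.24 to 1.09 for Notch4, -0.25 to 0.46 for Hey1, -0.51 to 0.99 for Hey2, -0.21 to 0.27 for Heyl, -1.004 to -0.15 for Hes1 and -0.81 to 1.00 for Nrarp. The members on 1 side numbered 0 with TMM, RLE, upper quartile and library size scaling and after thinning the deepest library, 2 with scaling to the geometric mean of the endothelial markers and 3 (Notch1, Heyl and Hes1) with scaling to their summed counts, an alternative chosen after seeing the data.

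The genes called were 640, and 987 with endothelial marker scaling (138 higher and 849 lower, against 224 and 416). The split turned to 486 higher and 391 lower without Pd1fl/fl replicate 2, and was 321 and 393 without Pd1fl/fl replicate 1, 141 and 574 without Pd1cKO-Tie2 replicate 1, and 172 and 517 without Pd1cKO-Tie2 replicate 2. The pathway genes called were 1, but 2 with DESeq2, limma-voom, no filter or at least 10 counts, 5 with endothelial marker scaling, and 2 to 4 with a library left out. Neurl1a was called beside Hes5 with DESeq2, limma-voom and both other filters. No paired analysis was possible because the labels of the genotypes share only 1 replicate number.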
